A study of Mus musculus with 9 samples.

Results

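The 4 myogenic regulatory factor genes Myod1, Myog, Myf5 and Myf6 were followed in CUT and RUN maps of Flag-tagged MyoD1 in C2C12 cells, a mouse skeletal myoblast line. Every peak that overlapped a gene body or the 50 kb on either side was taken, on mm10 with GENCODE M21. Myf5 and Myf6 are neighbours with overlapping windows, so one window was drawn over both and shared peaks were counted once. The 3 windows held 75 of the 116126 peaks of the 6 libraries. Merged across libraries where they overlapped or touched, these gave 29 of 58309 regions, with 15 around Myod1, 13 around Myog and 1 around Myf5 and Myf6.

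Both groups came from one cloned knock-in line, in which endogenous Myod1 carries an N-terminal 3xFlag-Halo tag and a piggyBac transgene adds a dox-inducible 3xFlag-Halo-MyoD1. Cultures were placed in differentiation medium for 6 h without doxycycline (no dox, n = 3) or with it (+dox, n = 3), and anti-Flag M2 directed the nuclease to tagged MyoD1. The comparison asks how binding at endogenous levels of MyoD1 differs from binding at raised levels. The antibody sees the endogenous and the transgenic protein alike, and both groups carry the transgene.

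The 4 genes encode basic helix-loop-helix transcription factors that pair with E proteins and bind E-boxes, short DNA elements of which CAGCTG is a form that MyoD1 favours. MyoD1 and Myf5 commit cells to the muscle lineage, myogenin (Myog) drives terminal differentiation, and Myf6 (MRF4) acts in commitment and in later fibres. MyoD1 is known to act on its own gene and on Myog, and Myod1 is known for enhancers that lie far upstream of its promoter.

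The lists were of unequal length and depth. They held 9389 to 13877 peaks without dox, and 12536, 13260 and 53661 peaks in +dox replicates 1, 2 and 3. Depth ran from 2868000 to 8030000 alignments, and the deepest library was +dox replicate 3. No dox replicate 2 stood apart at exons: of its 50 highest peaks 23 had their maximum on a coding exon, against 0 or 1 in each other library. Signal is given as the maximum of a peak in library-scaled coverage (CPM, in which 1 alignment was worth 0.125 to 0.349), the tallest point of the coverage, and as a height percentile, the rank of that maximum within its own list from 0 for the lowest to 100 for the highest. The 3 wild-type libraries of the series were not analysed here, so no background from untagged cells stands beside the values.

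At the Myod1 locus, 3 intergenic regions 23.1, 26.1 and 34.8 kb upstream of the start site and 2 regions over the gene itself were called in all 6 libraries. At the Myog locus this held for 1 region, which lay 43.1 kb downstream of the Myog start site and 197 bp before the start site of Ppfia4, a neighbour that encodes a liprin. At Myf5 and Myf6 no region was called in more than 1 library of a group.

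The sequences at the tallest point of the intergenic regions show the E-boxes there. Each run is 200 bp of GRCm38.p6 (the assembly behind mm10) on the forward strand, centred on the median position of the maximum, with CAGCTG and CAGGTG or its reverse complement CACCTG in capitals. No E-box printed overlaps another, and CAGCTG reads the same on both strands. They are, in order, chr7:46337576-46337775, chr7:46341526-46341725, chr7:46350276-46350475, chr7:46353313-46353512, chr1:134245276-134245475 and chr1:134333026-134333225.
Myod1 38.8 kb upstream: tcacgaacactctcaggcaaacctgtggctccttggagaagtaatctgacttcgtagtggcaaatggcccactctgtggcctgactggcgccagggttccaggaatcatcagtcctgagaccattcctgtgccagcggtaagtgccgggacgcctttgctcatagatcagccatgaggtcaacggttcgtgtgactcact
Myod1 34.8 kb upstream: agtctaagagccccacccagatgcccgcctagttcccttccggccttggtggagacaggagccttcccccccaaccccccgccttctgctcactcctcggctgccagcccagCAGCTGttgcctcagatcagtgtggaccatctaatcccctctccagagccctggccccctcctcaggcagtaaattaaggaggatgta
Myod1 26.1 kb upstream: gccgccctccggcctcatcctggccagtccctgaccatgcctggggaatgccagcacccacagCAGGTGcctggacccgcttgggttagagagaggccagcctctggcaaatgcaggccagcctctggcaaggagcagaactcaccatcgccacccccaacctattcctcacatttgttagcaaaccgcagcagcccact
Myod1 23.1 kb upstream: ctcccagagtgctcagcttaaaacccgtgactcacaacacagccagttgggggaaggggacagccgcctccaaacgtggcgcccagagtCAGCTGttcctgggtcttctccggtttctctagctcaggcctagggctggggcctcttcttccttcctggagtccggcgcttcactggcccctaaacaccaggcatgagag
Myog 44.6 kb upstream: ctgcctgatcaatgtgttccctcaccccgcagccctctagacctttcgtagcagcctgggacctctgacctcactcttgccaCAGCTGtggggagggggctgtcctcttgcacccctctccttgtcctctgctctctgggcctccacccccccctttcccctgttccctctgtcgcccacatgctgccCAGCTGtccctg
Myog 43.1 kb downstream: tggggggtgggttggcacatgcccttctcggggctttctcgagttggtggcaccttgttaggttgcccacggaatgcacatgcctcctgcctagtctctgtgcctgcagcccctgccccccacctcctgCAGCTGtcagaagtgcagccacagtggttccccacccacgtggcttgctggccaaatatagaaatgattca

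The region 34.8 kb upstream of Myod1 held 1 CAGCTG 16 bp from the maximum, the region at 23.1 kb held 1 CAGCTG 7 bp from it, and the region at 26.1 kb held 1 CAGGTG 33 bp from it. At Myog the region 44.6 kb upstream held 2 copies of CAGCTG and the region 43.1 kb downstream held 1. The weaker region 38.8 kb upstream of Myod1 held neither E-box in this window. Of the 11 window regions that at least 2 libraries of a group called, 5 held CAGCTG, all among the 7 whose 200 bp lay off exons. The share over all 14754 such regions of the genome on the main chromosomes, exons included, was 37.2% for CAGCTG (46.7% of those called in all 6 libraries) and 18.6% for CAGGTG or CACCTG. None of the 4 regions centred on exons, which are those on Myod1 exons 1 and 3, on Myog exon 1 and at the start of Kcnc1, held either E-box in its 200 bp. At Kcnc1 those 200 bp lay between the maxima of the 2 libraries. Searched over their whole length, all 4 regions held an E-box, as did the region 38.8 kb upstream of Myod1. Genome-wide 72.8% of whole regions held CAGCTG and 70.7% held CAGGTG or CACCTG. The AP-1 type motif TGANTCA, searched on both strands, was found once each in the windows 38.8 and 23.1 kb upstream of Myod1 and 43.1 kb downstream of Myog, against 12.1% of the same regions genome-wide.

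**Figure D1:**
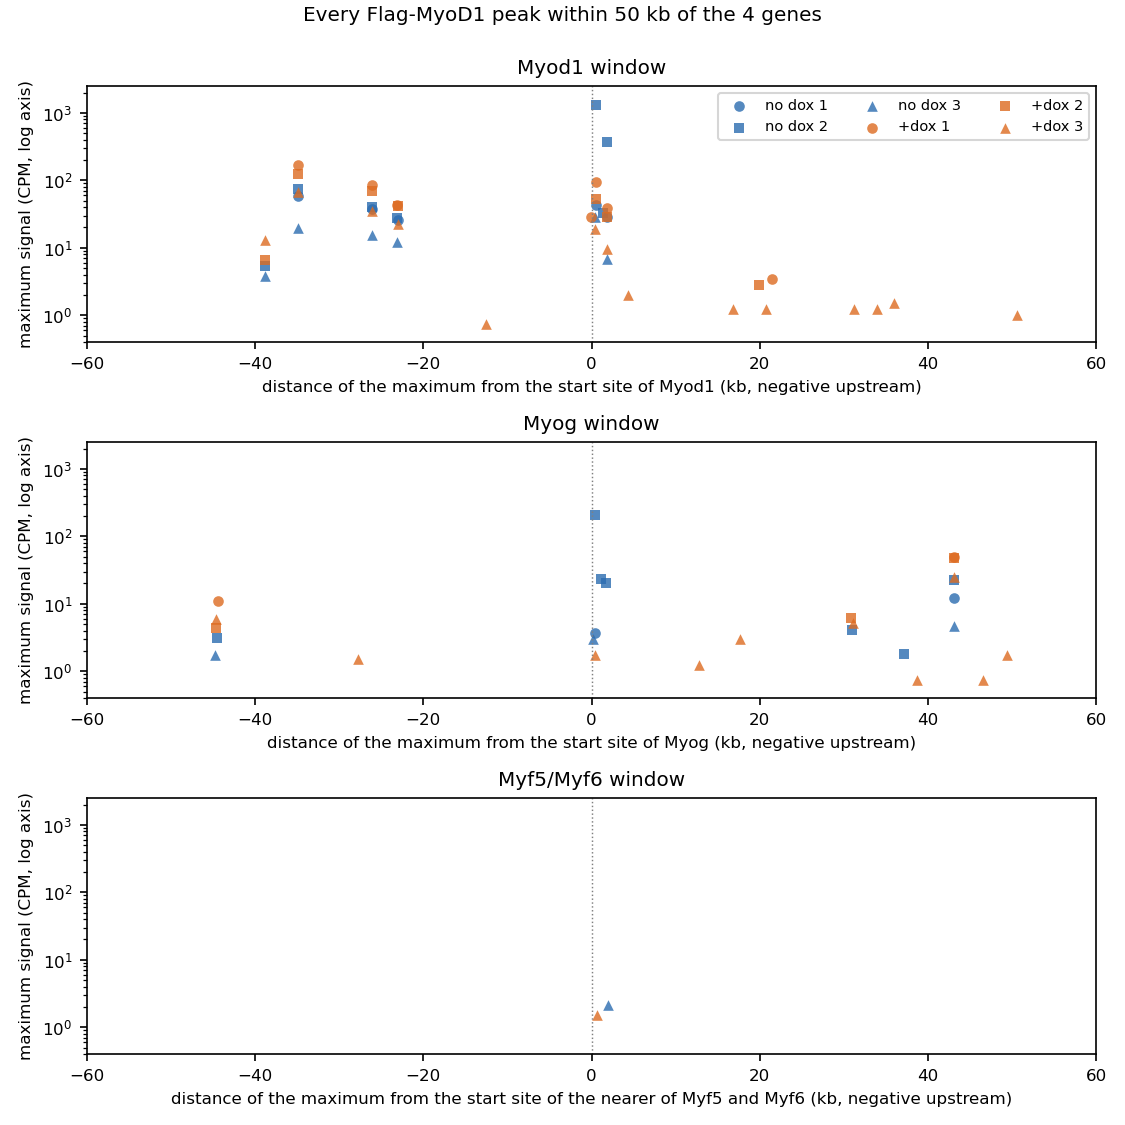
Every peak within 50 kb of the 4 genes, placed by the distance of its maximum from the start site (kb, negative upstream) and by its maximum signal (CPM, log axis), with colour for the group and marker shape for the replicate. Peaks upstream of Myod1 formed stacks at 38.8, 34.8, 26.1 and 23.1 kb, and the Myf5/Myf6 panel held 1 peak from each group.

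The strongest distal region of the Myod1 locus lay 34.8 kb upstream (chr7:46341151-46342300), between genes. Its maximum signal was 58.6, 74.1 and 19.7 CPM in no dox replicates 1, 2 and 3 and 169, 126 and 66.7 CPM in +dox replicates 1, 2 and 3. These maxima stood on 252, 328 and 92 alignments without dox and on 484, 453 and 536 with dox. The groups overlapped in CPM, since +dox replicate 3 was below no dox replicate 2. Within its own list the region sat at the 98.9th, 99.2nd and 97.0th percentile without dox and at the 99.4th, 99.5th and 99.7th with dox. Every +dox library thus ranked it above every no dox library, as held for 23.7% of regions called in all 6 libraries. The lists differ in length. Ranked only among those shared regions the groups overlapped, with 98.2 in no dox replicate 2 and 96.9 in +dox replicate 3.

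The region 26.1 kb upstream (chr7:46349151-46351450) lay 1002 bp before the start site of 1700025L06Rik, a long intergenic noncoding RNA gene on the opposite strand. Its maxima were 37.2, 39.7 and 15.4 CPM without dox and 85.1, 69.0 and 34.9 CPM with dox. The percentiles were 97.4, 97.7 and 95.2 without dox and 97.6, 98.0 and 98.9 with dox, and the groups overlapped on both scales. The region 23.1 kb upstream (chr7:46352351-46353900) had maxima of 26.1, 28.0 and 12 CPM without dox and 43.2, 42.3 and 22.7 CPM with dox. Its percentiles of 95.2, 96.0 and 92.7 without dox and 93.0, 95.3 and 97.7 with dox overlapped as well.

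Another upstream region, chosen for mention after its values were seen, lay 38.8 kb from the start site. It had no peak in replicate 1 of either group, 5.42 and 3.86 CPM in no dox replicates 2 and 3, and 6.67 and 13.2 CPM in +dox replicates 2 and 3. Between 1 and 22 kb upstream of Myod1 the 6 lists together held 1 peak, in +dox replicate 3, with a maximum of 0.747 CPM. Farther out than 22 kb upstream they held 22 peaks, and 13 had their maximum in the gene. From 50 to 150 kb on either side of Myod1 there were 11 regions, and 0 of them were called in 2 libraries of a group.

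Over the Myod1 gene (ENSMUSG00000009471.4, chr7:46376474-46379099, forward strand) the maxima fell on coding exons. The region at the start of the gene (chr7:46375801-46377850) covered all 627 coding bp of exon 1 in every library and had its maximum there, 0.5 kb past the start site. Its maxima were 43.5, 1324 and 28.7 CPM in no dox replicates 1, 2 and 3 and 95.2, 52.8 and 18.9 CPM in +dox replicates 1, 2 and 3. In no dox replicate 2 this was the highest peak of the whole list, on 5864 alignments, whereas its rank was 190 and 189 in the other no dox lists and 231, 428 and 1631 with dox. The percentile was 98.0, 100 and 98.6 without dox and 98.2, 96.8 and 96.9 with dox.

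Exon 3, which holds the last 248 coding bp, had a region of its own 1.8 kb past the start site (chr7:46378051-46378650). Its peaks were 350 to 600 bp wide and spanned the whole coding part of the exon in all 6 libraries. The maxima were 28.9, 365 and 6.86 CPM without dox and 38.4, 28.4 and 9.71 CPM with dox. Exon 2, of 79 bp, had a separate peak of 150 bp in no dox replicate 2 alone, at 33.0 CPM. In +dox replicate 1 the promoter carried a peak of its own (chr7:46376151-46376550) of 28.6 CPM, with the maximum before the start site.

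The ratio of the exon 1 maximum to that 34.8 kb upstream was 0.742, 17.9 and 1.46 in no dox replicates 1, 2 and 3 and 0.564, 0.419 and 0.284 in +dox replicates 1, 2 and 3. The ratio was below 1 in every +dox library and in no dox replicate 1. The transgene holds a MyoD1 coding sequence and is present in both groups, so reads from transgene copies and reads from the exons of the native gene cannot be told apart in these lists.

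**Figure D2:**
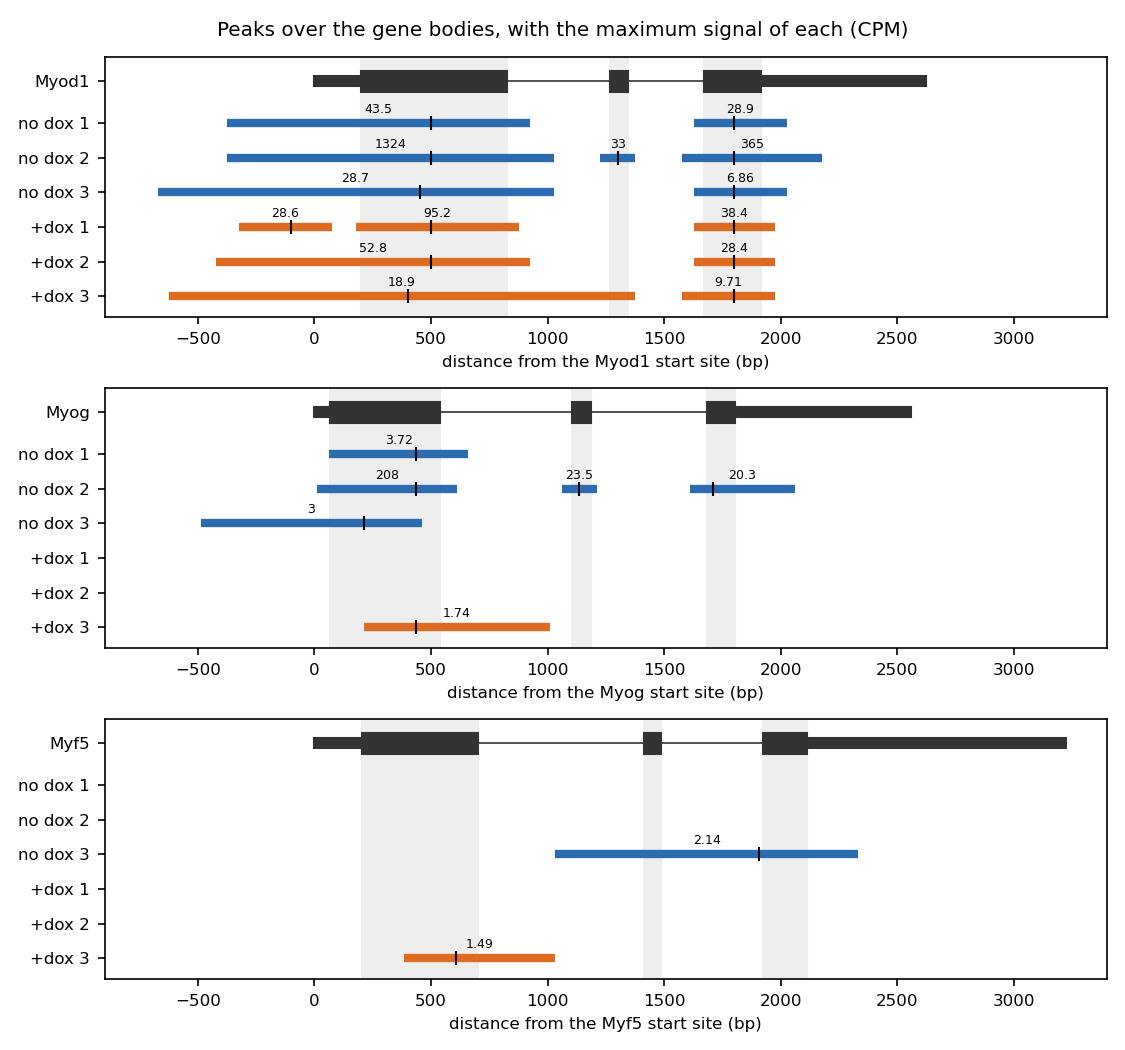
Peaks over Myod1, Myog and Myf5 by distance from each start site (bp), one line per library with its maximum signal above it (CPM). Black ticks mark the maximum, tall boxes and grey bands mark coding exons, and low boxes mark UTRs. No dox replicate 2 had a peak on each of the 3 exons of Myod1 and of Myog.

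Maximum signal with and without dox was compared over the 4838 regions of the genome called in all 6 libraries, of which 6 lay in the windows. By limma on log2 CPM with Benjamini-Hochberg adjustment, 0 regions passed an adjusted p of 0.05 (0.00% higher with dox), with 1158 at an unadjusted p under 0.05. The median log2 difference over all of them was 0.91 (+dox minus no dox), so the values below are read against that shift, which was 0.02 after quantile normalization. Same-numbered libraries deviated together, and with the replicate number as a block 2518 regions passed as higher (52.0%) and 5 as lower (0.103%). In this blocked fit limma took the spread of each region from the trend over all regions. The unblocked fit without +dox replicate 3, used below, did the same. The p-values of these fits thus do not measure how far the pairs or libraries differed at a single region. On the unblocked values, 27.5% of the regions had a higher maximum, and 23.7% a higher percentile, in every +dox than in every no dox library.

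At the 3 upstream regions of Myod1 the differences lay on either side of that median. The log2 difference was 1.35 ± 0.63 (SE) at 34.8 kb, 1.05 ± 0.59 at 26.1 kb and 0.75 ± 0.58 at 23.1 kb, with limma adjusted p-values of 0.208, 0.229 and 0.328. These values stood at the 83.7th, 61.7th and 36.8th percentile of the 4838 differences. With the replicate block the limma adjusted p was 0.000168, 0.00491 and 0.0546, which puts the first 2 past the threshold. Without +dox replicate 3 and without the block, the region at 34.8 kb passed (1.73, limma adjusted p = 0.0316), as did 1906 of the 4838 regions (39.4%) as higher. That fit also took its spread from the trend over all regions. Without no dox replicate 3 the differences were 0.77, 0.62 and 0.36 (limma adjusted p = 0.56, 0.575 and 0.706), and the genome-wide median was 0.68. Between same-numbered libraries the ratio of +dox to no dox was 2.88, 1.7 and 3.39 at 34.8 kb, 2.29, 1.74 and 2.26 at 26.1 kb, and 1.66, 1.51 and 1.89 at 23.1 kb. The genome-wide median ratios of the same pairs were 2.25, 1.61 and 1.91, above the 23.1 kb region in each pair. After quantile normalization 0 of the 6 window regions passed, with or without the block, and the difference at 23.1 kb was -0.31.

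The exon regions of Myod1 had differences below 0 whose sign turned on 1 library. The log2 difference was -1.37 ± 0.96 (SE) at exon 1 and -0.92 ± 0.92 at exon 3, with limma adjusted p-values of 0.291 and 0.432, and these ranked 1 and 3 from the lowest of 4838. With the replicate block both passed as lower (limma adjusted p = 0.000125 and 0.0166), with SE of 0.30 and 0.34 taken from the trend over all regions. The same-numbered pairs went in both directions at each exon, a spread that these p-values do not measure. Without no dox replicate 2 the differences were 0.37 and 0.64 (limma adjusted p = 0.692 and 0.514), and with the block and without that library 0.26 and 0.46 (limma adjusted p = 0.606 and 0.475). Both exons stayed below the genome-wide median, which was 1.06 without that library and 1.02 with the block as well. They stood at the 11.2th and 22.9th percentile of the differences, and at the 9.61th and 15.6th with the block. Same-numbered ratios at exon 1 were 2.19, 0.0399 and 0.659, and at exon 3 they were 1.33, 0.0776 and 1.42.

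**Figure D3:**
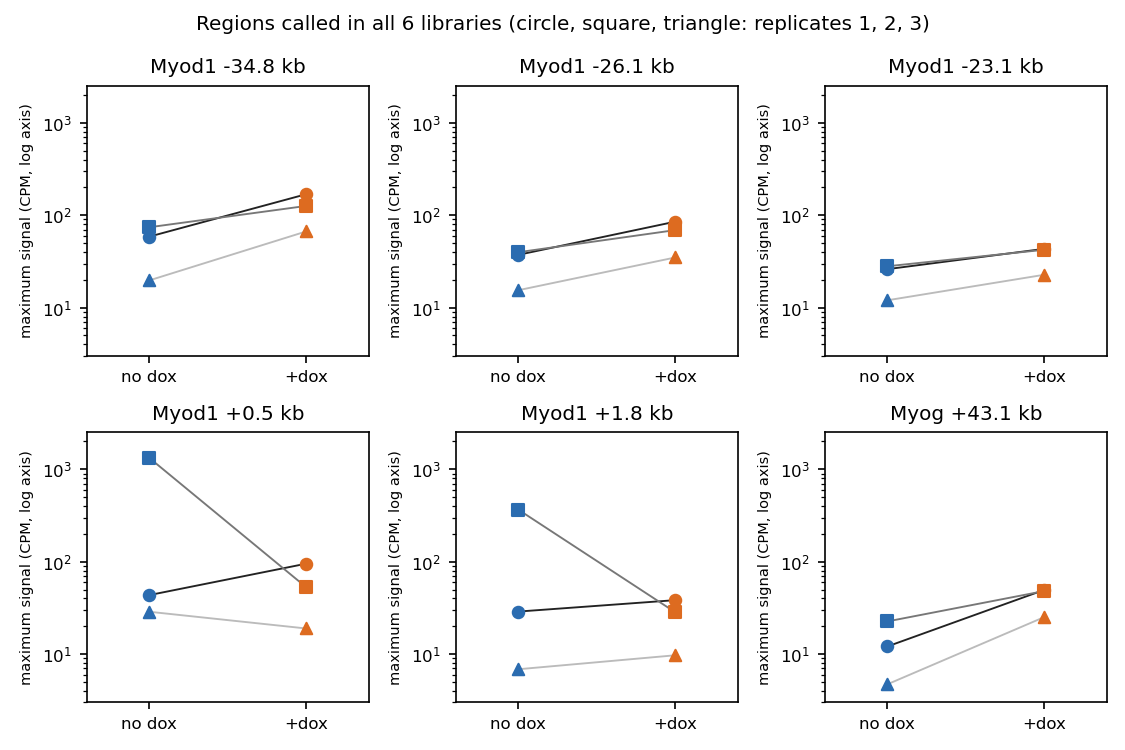
Maximum signal (CPM, log axis) at the 6 window regions called in all 6 libraries, without and with dox, with lines between libraries of the same replicate number. All 3 lines rise at the distal regions, and no dox replicate 2 lies at 1324 and 365 CPM on the Myod1 exons.

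At Myog (ENSMUSG00000026459.5, chr1:134289989-134292548, forward strand) the region called in all 6 libraries was the distal one at the Ppfia4 start site (chr1:134332051-134334050). Its maximum was 12.1, 22.6 and 4.71 CPM in no dox replicates 1, 2 and 3 and 49.5, 48.1 and 25.2 CPM in +dox replicates 1, 2 and 3, and every +dox library lay above every no dox library. The percentiles of 83.1, 94.2 and 70.0 without dox and 94.2, 96.3 and 98.0 with dox did not overlap either. Such separation was found for 27.5% of shared regions by maximum and 23.7% by percentile. Ranked only among shared regions the groups overlapped, with 84.6 in no dox replicate 2 and 80.4 in +dox replicate 3. The log2 difference of 1.85 ± 0.62 (SE; limma adjusted p = 0.208) was at the 98.7th percentile of all differences, rank 66 from the highest. With the replicate block it passed as higher (limma adjusted p = 1.86e-05), and it also did so with the block and without no dox replicate 2 (2.22, limma adjusted p = 0.00107), a setting in which 24.5% of regions passed as higher. Without the block it passed when +dox replicate 3 was left out (2.17, limma adjusted p = 0.00635). In that fit too the spread came from the trend over all regions, so this p-value does not measure the spread at the region. Without no dox replicate 3 the difference was 1.24 (limma adjusted p = 0.555), at the 91.5th percentile. Same-numbered ratios were 4.09, 2.13 and 5.34. The nearest start site is that of Ppfia4, and the lists do not tell which gene the region acts on.

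Over the Myog gene itself the signal was low outside no dox replicate 2. The region on exon 1 (chr1:134289501-134291000), with its maximum 0.4 kb past the start site, had maxima of 3.72, 208 and 3.00 CPM in no dox replicates 1, 2 and 3, on 16, 919 and 14 alignments. With dox it was called in replicate 3 alone, at 1.74 CPM on 14 alignments. The percentiles were 29.3, 99.9 and 47.9 without dox and 54.0 in that +dox library. Exons 2 and 3 carried peaks in no dox replicate 2 alone, of 23.5 and 20.3 CPM, named here after their values were seen. As on Myod1, the first maximum was the tallest of the 3 exons in that library. What gave exon peaks of this height in 1 library was not tested.

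A region 44.6 kb upstream of Myog (chr1:134244801-134245800), with Adora1 as the nearest start site, had no peak in no dox replicate 1, 3.16 and 1.71 CPM in no dox replicates 2 and 3, and 11.2, 4.45 and 5.98 CPM in the +dox replicates. Where called, its percentiles ran from 14.9 to 29.1 without dox and from 25.7 to 86.9 with dox, so the groups overlapped in rank. In CPM the 3 +dox libraries lay above the 2 no dox libraries with a peak. No genome-wide share of this pattern was counted. From 50 to 150 kb there were 13 further regions, of which 3 were called in at least 2 libraries of a group and 0 in all 6.

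The Myf5/Myf6 window (chr10:107432908-107544737) held 2 peaks in all. Myf5 (ENSMUSG00000000435.1, reverse strand) carried a peak of 2.14 CPM on 10 alignments in no dox replicate 3, at the 27.5th percentile, with its maximum on the edge of exon 3. A peak of 1.49 CPM on 12 alignments in +dox replicate 3, at the 44.8th percentile, had its maximum on exon 1. The peaks met end to end at chr10:107485100 and shared no base. Myf6 (ENSMUSG00000035923.4, reverse strand) had no peak over its body, and from 50 to 150 kb on either side of the pair there were 0 regions. Empty windows were common: of 21728 protein-coding genes, 34.2% had no peak within 50 kb in 4 or more of the lists, as here. The lists hold called peaks only, so signal below the calling limit was not detectable, and that limit differed between lists.

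Counts of peaks per window did not separate the groups. The Myod1 window had 5, 7 and 6 peaks without dox and 7, 7 and 14 with dox, or 6 ± 1 and 9.33 ± 4.04 (SD, n = 3 each; exact two-sided permutation p = 0.3). With every list shortened to its 9389 strongest peaks these counts became 5, 7 and 6 without dox and 6, 6 and 6 with dox. For Myog the counts were 2, 7 and 3 without dox and 2, 3 and 10 with dox, or 4 ± 2.65 and 5 ± 4.36 (SD, n = 3 each; exact two-sided permutation p = 0.9). For Myf5/Myf6 they were 0, 0 and 1 in each group (exact two-sided permutation p = 1). The smallest p this design allows is 0.1, and the p-values are unadjusted over the 3 windows. In 0 of the 3 windows did every +dox library have more peaks than every no dox library, which was so for 5.64% of gene windows.

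Of the 29 regions, 17 were called in a single library (58.6%, against 67.8% of all merged regions), and 13 of these were in +dox replicate 3 alone, with maxima of 0.747 to 2.99 CPM. With a region taken as consensus when at least 2 of 3 libraries called it, the windows had 9 without dox and 10 with dox. Of the 11 in either, 2 were consensus with dox only and 1 without dox only, where 36.1% and 6.51% of all 14755 consensus regions were. Those gained, named after their values were seen, were a Ppfia4 intron 30.9 kb past the Myog start site (4.06 CPM in no dox replicate 2, 6.12 and 5.23 CPM in +dox replicates 2 and 3) and the start of Kcnc1, 20.3 kb past that of Myod1. At Kcnc1, a potassium channel gene, the peaks of +dox replicates 2 and 3 (2.78 and 1.25 CPM) only touched. The region lost was Myog exon 1.

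Height ranks within each list depended on the set ranked. Averaged over the 6 regions called in all libraries, the percentile was 94.7, 97.8 and 89.2 without dox and 95.6, 96.1 and 97.3 with dox, a difference of 2.41 points. Without no dox replicate 3 the difference was 0.0594 points, without no dox replicate 2 it was 4.36, and by total signal in place of the maximum it was 5.48. Ranked only among the 4838 regions called in all 6 libraries the difference was -1.93 points. On that scale 0 of the 6 was higher in every +dox library, against 3.56% of regions, and Myod1 exon 1 was lower in every one, against 4.44%. Its values there were 96.1, 100 and 96.2 without dox and 95.3, 91.2 and 71.4 with dox.

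**Figure D4:**
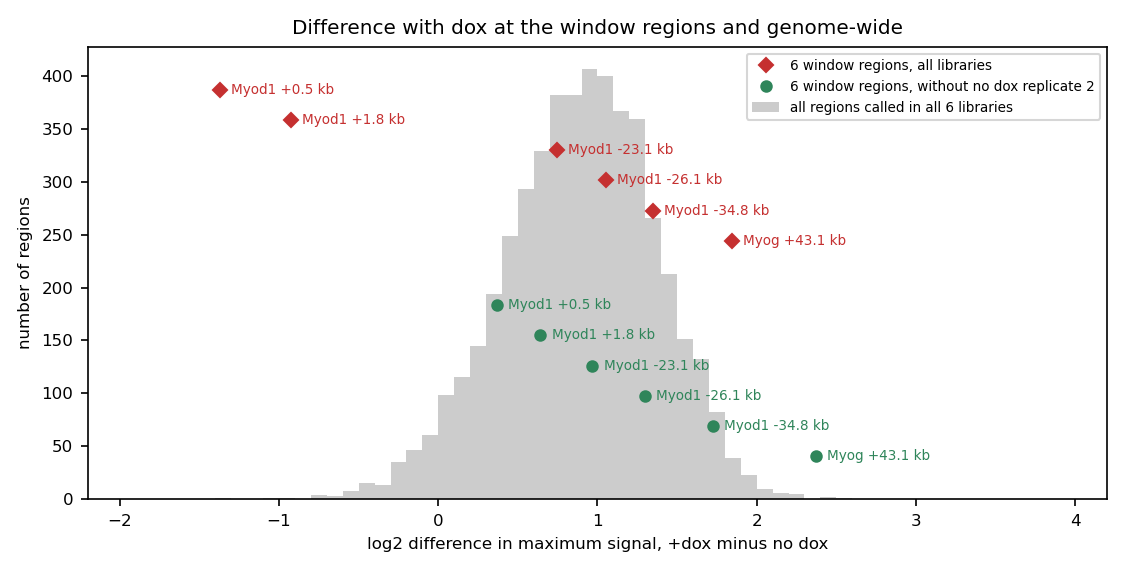
Log2 difference in maximum signal (+dox minus no dox) for the 6 window regions with all libraries (diamonds) and without no dox replicate 2 (circles), over a histogram of all 4838 regions with all libraries. Marker height has no meaning. The Myod1 exon regions moved from -1.37 and -0.92 to 0.37 and 0.64, below the genome-wide median of 1.06 without that library. The Myog distal region stayed in the upper tail.

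Other genes of the muscle network gave the frame for these loci. Of 31 listed cofactors, regulators and targets, 28 had a consensus region within 50 kb with dox (90.3%), against 64.8% of all protein-coding genes, and 26 had a region called in all 6 libraries (83.9%, against 37.0%). In the unblocked limma fit 0 of the 31 had a region past the threshold. With the replicate block 21 had 1 or more regions higher (67.7%, against 25.2% of all protein-coding genes). Only genes with a region called in all 6 libraries could pass. Among those it was 21 of 26 listed genes, against 5479 of 8034 protein-coding genes. Listed genes also had more consensus regions with dox (median 3 against 1), and the medians were the same without dox. A consensus region without dox was likewise found for 28 listed genes (90.3%), against 53.1% of all protein-coding genes. With the block 1 listed gene (Pax7) had 1 region lower, as had 7 of all 21728. Over the 26 genes the log2 difference at the strongest shared region ran from -0.72 to 2.22, and the genes below were chosen by name and not by their values. Des, the muscle intermediate filament gene, had its strongest shared region at 27.0, 38.4 and 34.7 CPM without dox and 41.1, 51.7 and 58.5 with dox (log2 difference 0.60, limma adjusted p = 0.4, with the replicate block 0.101), and 4 of its 5 shared regions passed as higher with the block. Cdkn1a, a cell cycle inhibitor gene, had 7.91, 10.8 and 9.0 CPM without dox and 13.3, 19.7 and 13.0 with dox (0.71, limma adjusted p = 0.327, with the block 0.111), and 1 of its 3 shared regions passed as higher with the block. Mef2c, a partner of the myogenic factors, had no consensus region, as was so for Myf5 and Myf6.

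Likeness to other genes was read from the strongest peak within 50 kb in each library, which need not be the same peak. For Myod1 it was exon 1 in no dox replicates 2 and 3 and the region 34.8 kb upstream in the other libraries, and for Myog it was exon 1 in no dox replicate 2 and the distal region elsewhere. The genes closest to Myod1 were Erbb3, Esyt1 and Myl6, which are neighbours with the same values, at 136 CPM in no dox replicate 2 against 1324 CPM. The measure was the Euclidean distance over 6 log2 maxima among 9480 genes with a peak in every library, and it was 3.74 for these, most of it from that library. For Myog they were Klhl30 at 2.6 and Dbn1 and F12, which have the same values, at 2.81. Myf5 and Myf6 had no peak in every library and so entered no such list.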

How the data were processed

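CUT and RUN with anti-Flag M2 was analysed in 6 C2C12 libraries, 3 without dox and 3 with dox, grouped by the labels. The authors ran nf-core/cutandrun on mm10, removed blacklisted regions, scaled coverage signal to CPM without spike-in, and called peaks per library with SEACR in relaxed mode. A control library or numeric threshold for calling is not given in the sources used here. The deposited lists give each peak's total and maximum signal. All maxima were whole multiples of the worth of 1 alignment, which gave the depth. Intervals lay on a 50 bp grid and 0 peaks passed a chromosome end of GRCm38.p6.

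Here, peaks were merged where they overlapped or touched, percentiles are average ranks within a list, and log2 maxima were tested with limma 3.58.1 (trend, R 4.3.3) over 4838 regions, with Benjamini-Hochberg adjustment over all of them. No pseudocount was needed. Peaks per window were tested with the exact permutation test over 20 assignments. Replicate numbers come from the labels, which call them biological replicates. Deviations from the group means correlated at 0.485, 0.267 and 0.628 between same-numbered libraries 1, 2 and 3, all above the limit of 0.1 set for pairing, so the numbers were taken to pair them and blocked values stand beside the results. No dox 1 with +dox 2 gave 0.265 and no dox 2 with +dox 1 gave 0.219, so pair 2 was not set apart from these. Scripts used Python 3.11.15, NumPy 2.4.6 and pandas 2.3.3, and were tested on simulated data, for limma in the unblocked fit only.

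RefSeq promoter sequences (GRCm38.p6) matched 2 of the 4 genes, Myog and Myf5. Neither held CAGCTG in its 250 bases, which 13.0% of 32851 promoters did. Neither held CAGGTG on either strand, which 17.2% did, nor TGANTCA, which 6.75% did. Other forms of E-box were not searched for, so these promoters may hold them.

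The members and lists were chosen with earlier results of these data known. Regions named with values are those called in all 6 libraries, those nearest the start sites, those called in 3 of 3 libraries of one group and 0 of 3 of the other (0 in these windows), and, per window, the 3 of highest mean percentile among those called in at least 4 libraries. Likeness was read for the 3 nearest genes. Alternatives left out each library, equalised list lengths or thresholds, changed the window to 10 or 150 kb, the consensus rule, the normalization, the merging and the pairing.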

Additional observations from a re-analysis of the deposited data

How the results depend on the processing

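The Myog difference in mean peaks per window (+dox minus no dox) was 1 in the main count. It was -0.667 with lists shortened to the 9389 strongest peaks, -1 with 10 kb on each side and -0.667 under one threshold on total signal. It ran from -1.5 to 2.5 when 1 library was left out, the lowest without +dox replicate 3, while 150 kb on each side gave 3.67. The Myod1 difference in mean peaks per window, 3.33 in the main count, was 0 with equal lists, 0.333 with 10 kb and 0.333 under one threshold. It was 5 with 150 kb and 1 without +dox replicate 3. Consensus regions with dox only numbered 1 under the 3 of 3 rule, 1 with peaks reduced to 100 bp each side of the maximum, and 1 with touching peaks kept apart, an alternative chosen after seeing the data. They numbered 0 to 4 when 1 library was left out (4 without no dox replicate 2 or 3, 0 without +dox replicate 2 or 3), and those without dox only 1 to 2 (2 without +dox replicate 2 or 3). Of the 6 shared regions 0 passed limma in the unblocked fit. With the replicate block 3 passed as higher and 2, on the Myod1 exons, as lower. The blocked shares over all 4838 regions were 52.0% higher and 0.103% lower. With the block and without no dox replicate 2 (chosen after seeing the data) 3 passed, all as higher. Without the block 0 to 2 passed when 1 library was left out, with 2 higher without +dox replicate 3. That last fit, like the blocked one, took the spread of each region from the trend over all regions. Over all 4838 regions 1184 passed as higher with the block and without no dox replicate 2, and 1906 as higher and 5 as lower without +dox replicate 3. Without no dox replicate 3 the 3 upstream Myod1 regions were at 0.77, 0.62 and 0.36 and the distal Myog region at 1.24. Quantile normalization gave -0.31 at the region 23.1 kb upstream of Myod1, with or without the replicate block (the blocked form chosen after seeing the data). Myod1 exon 1 ran from -2.39 to 0.37 and exon 3 from -2.23 to 0.64 over single left-out libraries, positive only without no dox replicate 2, and with the block and without that library they were 0.26 and 0.46. The genome-wide median was 1.06 without that library and 1.02 with the block as well. The mean percentile difference was -1.93 when ranked among shared regions only, 5.48 by total signal, and 0.0594 to 4.36 over single left-out libraries, the ends without no dox replicates 3 and 2. The cause was not tested for any of these. With 3 libraries a group and no spike-in, absolute amounts of bound protein are beyond these lists.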
